A study of Rattus norvegicus with 3 samples.

Results

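The respiratory chain was read here through 110 of the 22250 genes listed for 3 single-nucleus RNA libraries of rat heart. They were chosen by symbol: Nduf genes (complex I subunits and assembly factors), Sdha to Sdhd (complex II), Uqcr genes (complex III), Cox4 to Cox8 genes (complex IV), Atp5 genes (complex V) and every gene starting with Mt-. Of these, 97 are nuclear-encoded and 13 are encoded by mitochondrial DNA. The complexes were assigned from the symbols alone, so Ndufa4, which has also been placed in complex IV, was counted under complex I.

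Nuclei were sorted by FACS from the cardiac apex, with part of the septum and both ventricles, of Sprague Dawley rats aged 12 months. There was 1 library of each genotype: WT, BMD (the R-BMDdel45-47 line, with an in-frame deletion in Dmd) and DMD (the R-DMDdel52 line, with a deletion in Dmd and no dystrophin). A genotype, an animal and a library therefore cannot be told apart, no difference between genotypes could be tested, and every interval below is a 95% interval for counting error only. The number of animals behind a library is not given in the sources used here.

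The respiratory chain passes electrons from NADH and succinate to oxygen through complexes I to IV and pumps protons across the inner mitochondrial membrane, and complex V, the ATP synthase, uses that gradient to make ATP. Complexes I, III, IV and V are built from subunits of both genomes, whereas complex II is wholly nuclear-encoded. Heart muscle depends on this pathway for nearly all of its ATP. In a preparation of nuclei, transcripts of the nuclear genes are read where they are made, while transcripts of the mitochondrial genome arise outside the nucleus, so Mt reads in nucleus barcodes are generally taken as RNA from outside the nucleus.

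The 3 libraries held 19215994 to 21609238 UMIs (single RNA molecules), of which 70.8% to 79.4% were in 24664 nuclei with at least 513 UMIs. Clustering without the respiratory chain genes gave 16 clusters and 8 named classes. Cardiomyocyte-like nuclei carried all 10 of 10 cardiomyocyte markers present in the files, whose summed level was 23284 to 25605 CPM (UMIs of a gene per 1e+06 UMIs) in them and 3094 to 3894 CPM in the other nuclei. WT had 2021 of these nuclei, BMD 1503 and DMD 1054, with median depths of 2758, 3736 and 3240 UMIs. Dmd itself was read at 16526, 20908 and 19591 CPM in them, which checks nothing, because a count over the whole gene does not show whether some of its exons are deleted. Between 12 and 20 nucleus barcodes were shared by each pair of libraries.

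Free RNA, here the RNA of barcodes with at most 50 UMIs, was the background against which the members were set. The WT library stood apart in it. Its 361870 such barcodes held 4.35 UMIs each on average, against 1.34 in BMD and 1.39 in DMD, so the free RNA of WT came from fuller barcodes than that of the other libraries. The part of this difference in the free RNA values below was not tested.

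For reference beside the levels that follow, promoters of 5 nuclear-encoded members are shown, because they stand for the patterns met below. Sdha and Ndufaf4 were higher in cardiomyocyte-like nuclei in all 3 libraries. Cox4i1 and Cox6a2 are the common and the heart and muscle form of their subunits, and Ndufa4l2 had its highest level in pericyte or smooth muscle-like nuclei. Each sequence runs 5′ to 3′ from 250 bases before to 50 bases after the RefSeq start (build GRCr8). The windows were chr1:30764303-30764602 on the plus strand for Sdha, chr5:43401545-43401844 on the plus strand for Ndufaf4 and chr19:65630133-65630432 on the plus strand for Cox4i1. They were chr1:192219667-192219966 on the minus strand for Cox6a2 and chr7:65241919-65242218 on the plus strand for Ndufa4l2. Capitals mark matches, on either strand, to 4 motifs: NRF1 (GCGCA, any base, GCGC), ETS (CCGGAAG), ERR (AAGGTCA) and MEF2 (CTA, any 4 bases, TAG).
Sdha: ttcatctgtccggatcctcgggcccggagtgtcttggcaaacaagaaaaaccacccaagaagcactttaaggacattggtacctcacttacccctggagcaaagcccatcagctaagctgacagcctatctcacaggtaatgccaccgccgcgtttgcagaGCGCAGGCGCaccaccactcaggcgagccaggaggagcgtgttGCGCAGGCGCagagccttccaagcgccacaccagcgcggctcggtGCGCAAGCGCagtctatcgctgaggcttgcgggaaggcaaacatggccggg
Ndufaf4: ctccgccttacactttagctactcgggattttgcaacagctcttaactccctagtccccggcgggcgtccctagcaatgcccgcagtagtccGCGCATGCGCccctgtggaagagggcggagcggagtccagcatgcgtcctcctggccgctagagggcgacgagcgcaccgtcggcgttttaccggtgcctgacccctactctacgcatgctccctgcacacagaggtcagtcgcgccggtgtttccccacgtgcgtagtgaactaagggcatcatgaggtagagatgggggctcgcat
Cox4i1: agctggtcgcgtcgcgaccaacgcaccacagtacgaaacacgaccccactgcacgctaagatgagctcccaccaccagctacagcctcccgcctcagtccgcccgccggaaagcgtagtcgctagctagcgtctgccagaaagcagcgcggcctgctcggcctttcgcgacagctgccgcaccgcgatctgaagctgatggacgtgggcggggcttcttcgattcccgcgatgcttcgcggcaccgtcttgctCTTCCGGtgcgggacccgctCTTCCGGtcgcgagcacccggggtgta
Cox6a2: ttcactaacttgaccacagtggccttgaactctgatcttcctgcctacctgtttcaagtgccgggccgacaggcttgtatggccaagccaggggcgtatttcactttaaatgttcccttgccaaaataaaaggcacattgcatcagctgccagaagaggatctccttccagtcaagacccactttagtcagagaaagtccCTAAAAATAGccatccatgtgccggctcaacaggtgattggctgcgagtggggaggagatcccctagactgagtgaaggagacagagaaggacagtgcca
Ndufa4l2: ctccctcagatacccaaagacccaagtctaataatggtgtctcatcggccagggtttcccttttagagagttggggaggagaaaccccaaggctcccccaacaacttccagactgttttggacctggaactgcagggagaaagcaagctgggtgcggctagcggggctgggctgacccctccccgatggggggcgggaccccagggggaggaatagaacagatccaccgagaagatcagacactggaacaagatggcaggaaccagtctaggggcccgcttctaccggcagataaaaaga

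The Sdha window held 3 NRF1 matches, the Ndufaf4 window 1 NRF1 match, the Cox4i1 window 2 ETS matches and the Cox6a2 window 1 MEF2 match, whereas none of the 4 motifs was matched in the Ndufa4l2 window. NRF1, the ETS factor GABP and the estrogen-related receptors (ERR) are known regulators of respiratory chain genes, and MEF2 factors act in muscle. Of the 93 nuclear-encoded symbols, 80 had a promoter in the RefSeq table. NRF1 letters occurred in 18.8% of these 80 promoters and in 4.71% of all 27457 promoters of the same length. For ETS the shares were 26.2% and 9.22%, for ERR 12.5% and 4.37%, and for MEF2 2.5% and 3.83%. The member share was thus the higher one for the first 3 motifs and the lower one for MEF2. A match is a stretch of letters, and no binding was measured here.

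Cardiomyocyte-like nuclei were high in nuclear-encoded members and low in Mt members. The summed level of the nuclear-encoded members in cardiomyocyte-like nuclei was 6941 CPM (6876 to 7006) for WT, 5929 CPM (5870 to 5989) for BMD and 6460 CPM (6379 to 6541) for DMD. Among the classes with at least 50 nuclei in every library, this was the highest level in each of the 3 libraries, with no overlap of intervals with the next class. The next was endothelial-like nuclei at 4919 CPM in WT and 5572 CPM in DMD, and lymphatic-like nuclei at 4715 CPM in BMD. The intervals of endothelial-like (4815 to 5025 CPM) and lymphatic-like nuclei (4427 to 5059 CPM) overlapped in WT, so their order there was not resolved.

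Fibroblast-like nuclei, the matrix-producing cells, read 4176, 3629 and 4586 CPM in WT, BMD and DMD. Pericyte or smooth muscle-like nuclei read 4578, 4235 and 4751 CPM, and macrophage-like nuclei 3841, 3970 and 4196 CPM. Macrophage-like nuclei were therefore lowest in WT and DMD, and fibroblast-like nuclei were lowest in BMD. T or B cell-like nuclei lay close to these at 4180, 4191 and 4849 CPM. Monocyte or neutrophil-like nuclei read 11353 CPM in DMD, above cardiomyocyte-like nuclei, but only 36 and 39 such nuclei were found in WT and BMD. In that class free RNA could, by its cardiomyocyte markers, make up 86.2% of the UMIs in DMD, and its part in the level was not tested.

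**Figure D1:**
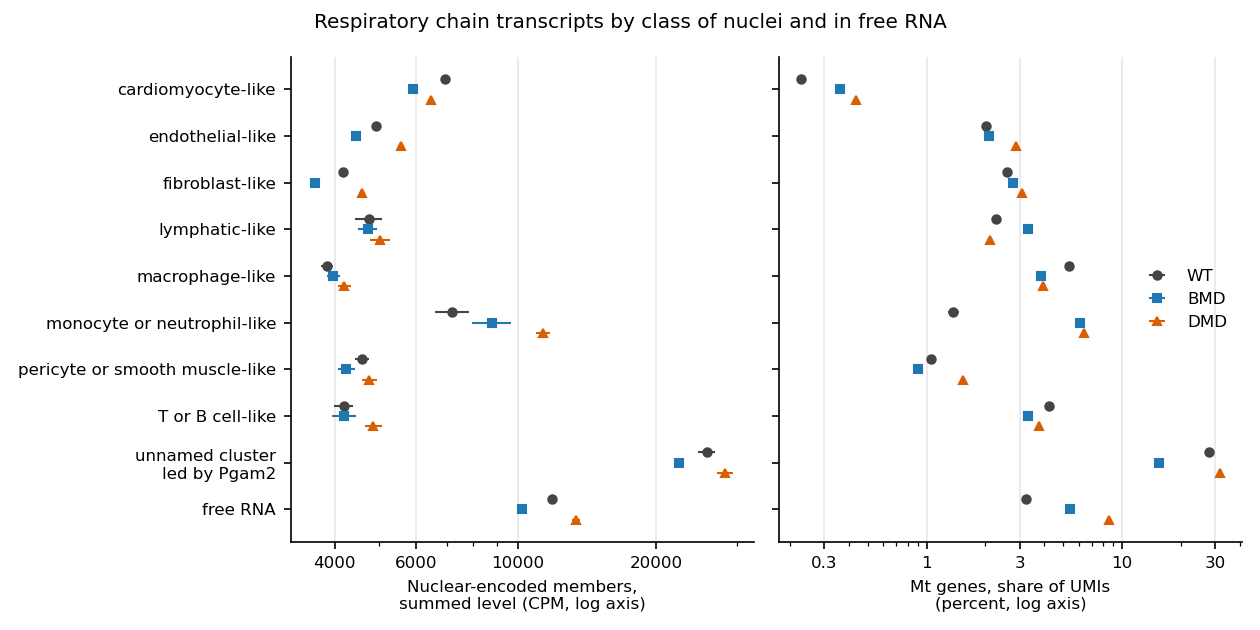
Summed level of the nuclear-encoded members (left, CPM, log axis) and share of UMIs from Mt members (right, percent, log axis) in each class of nuclei and in free RNA, with 1 point per library and bars for 95% counting intervals. Cardiomyocyte-like nuclei sit at 5929 to 6941 CPM on the left and at 0.229% to 0.437% on the right, the lowest Mt share of any class.

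The Mt members, which encode core subunits of complexes I, III, IV and V, made up only 0.229% of all UMIs in WT cardiomyocyte-like nuclei (0.225% to 0.232%), beside 0.362% (0.358% to 0.367%) for BMD and 0.437% (0.430% to 0.443%) for DMD. This was the lowest share of all named classes in each library. Pericyte or smooth muscle-like nuclei came next with 1.05%, 0.905% and 1.54%. Among classes with at least 50 nuclei in every library, macrophage-like nuclei had the highest Mt share, at 5.33%, 3.84% and 3.93%. Monocyte or neutrophil-like nuclei stood above them in BMD (6.07%) and DMD (6.43%), on 39 and 262 nuclei. In BMD the median nucleus of that class held 1.76%. In DMD the class had only 97 nuclei with finer clusters or with the members kept in the clustering. Fibroblast-like nuclei had 2.57%, 2.78% and 3.09%, and endothelial-like nuclei 1.98% to 2.03% (the interval) in WT, 2.08% in BMD and 2.87% in DMD. T or B cell-like nuclei had 4.21%, 3.31% and 3.76%, and lymphatic-like nuclei 2.25%, 3.31% and 2.12%. For each UMI of a nuclear-encoded member, cardiomyocyte-like nuclei thus held 0.329, 0.611 and 0.676 Mt UMIs, whereas macrophage-like nuclei held 13.9, 9.66 and 9.36.

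By the Mt share of single nuclei, cardiomyocyte-like nuclei were again lowest, at the greatest median depth of the named classes. By the number of Mt UMIs they were not below all others. Their median nucleus held 4, 9 and 10 Mt UMIs in WT, BMD and DMD. The median pericyte or smooth muscle-like nucleus held 4, 5 and 8, at median depths of 801, 990 and 919 UMIs. The median cardiomyocyte-like nucleus had 0.139%, 0.250% and 0.326% of its UMIs from Mt members in WT, BMD and DMD, against 1.99%, 1.14% and 1.73% for the median fibroblast-like nucleus. More than 5% Mt UMIs, a common limit for discarding nuclei, was reached by 0.643%, 0.865% and 0.664% of cardiomyocyte-like nuclei. The same limit was passed by 40.9% (WT), 14.0% (BMD) and 18.5% (DMD) of macrophage-like nuclei, so that filter falls on classes unequally. After each nucleus was thinned to 500 UMIs, 54.0%, 68.5% and 76.3% of cardiomyocyte-like nuclei had any Mt UMI in WT, BMD and DMD, and 95.7%, 99.4% and 99.1% did before thinning. Of fibroblast-like nuclei, 96.4%, 91.8% and 95.9% had one after thinning, at median depths of 1215.5, 1587.5 and 1356 UMIs. Any nuclear-encoded member was seen in 97.0%, 94.1% and 96.1% of thinned cardiomyocyte-like nuclei, and in all of them before thinning.

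**Figure D2:**
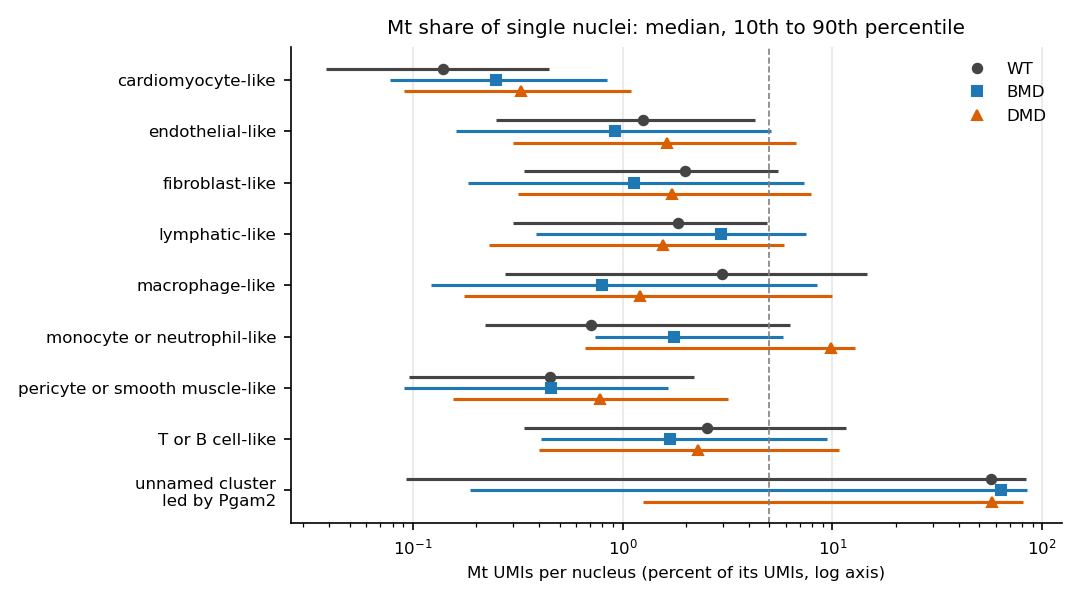
Percent of a nucleus's UMIs that came from Mt members (log axis), by class and library, with points for medians and lines from the 10th to the 90th percentile of nuclei, and a dashed line at 5%. Medians of cardiomyocyte-like nuclei (0.139% to 0.326%) lie below those of all other classes, and the unnamed cluster led by Pgam2 has medians of 56.8% to 63.9%.

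Within each library, cardiomyocyte-like nuclei were set against all other nuclei gene by gene. The other nuclei included the unnamed cluster led by Pgam2, of 44, 90 and 50 nuclei in WT, BMD and DMD. Its nuclear-encoded sum was 25817, 22391 and 28241 CPM, and its part in these ratios was not taken out. Ratios of the sums with it counted as cardiomyocyte-like are given with the processing alternatives. On the log2 scale the nuclear-encoded sum was higher in cardiomyocyte-like nuclei by 0.56 (WT), 0.27 (BMD) and 0.28 (DMD), while the Mt sum differed by -3.54, -3.01 and -2.85. All 13 Mt members were below 0 in every library. For counts and medians over single genes the ratio was taken after adding 5 CPM to both levels, which draws low genes towards 0. A log2 ratio of one gene that is given with its interval is the plain ratio of its levels. Of 89 nuclear-encoded members that could be read in WT, 31 were at least 1.5-fold higher in cardiomyocyte-like nuclei and 7 lower, where 15.5% of all genes were higher and 44.6% lower. In BMD 17 of 88 were higher and 13 lower (all genes 14.8% and 44.5%), and in DMD 18 were higher and 14 lower (all genes 14.7% and 46.0%). The median member stood at 0.33, 0.03 and 0.14 in WT, BMD and DMD, and the median gene at -0.46, -0.46 and -0.50.

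Complex II stood out in this comparison, with all 4 of its subunits higher in cardiomyocyte-like nuclei in all 3 libraries and medians of 0.94, 0.93 and 1.01. Sdha, the catalytic flavoprotein that oxidises succinate, read 195 CPM in cardiomyocyte-like and 111 CPM in other nuclei of WT, 160 and 98.0 CPM in BMD, and 173 and 111 CPM in DMD. Sdhb, the iron-sulphur subunit, read 184 against 87.9 CPM in WT, 217 against 92.9 CPM in BMD and 201 against 90.4 CPM in DMD. Sdhc and Sdhd, which anchor the enzyme in the membrane, had log2 ratios of 1.31, 1.24 and 1.28, and of 0.85, 0.65 and 0.90. Complex I subunits had medians of 0.52, 0.19 and 0.28, and the smallest medians belonged to complex V in BMD (-0.25) and DMD (-0.16).

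In all 3 libraries, 15 of 88 nuclear-encoded members were at least 1.5-fold higher in cardiomyocyte-like nuclei: Uqcrc2, Sdha, Sdhb, Sdhc, Sdhd, Ndufc1, Ndufb5, Ndufa9, Ndufa5, Ndufs3, Ndufs1, Ndufv2, Ndufb3, Ndufaf4 and Ndufa10l1. None of them belongs to complex IV or V. In single libraries 14.7% to 15.5% of all genes were higher by that fold, but the share passing in all 3 was not taken. These 15 members, and the 5 lower ones below, are therefore a list and not a result about the members. Uqcrc2, a core subunit of complex III, read 358 against 136 CPM in WT, 349 against 151 CPM in BMD and 323 against 130 CPM in DMD. Ndufaf4, a complex I assembly factor, read 58.8 against 18.5 CPM in WT, 75.4 against 24.4 CPM in BMD and 78.8 against 19.7 CPM in DMD. Ndufa10l1 is listed under 2 identifiers, as are Ndufv3, Uqcrb and Cox6b1, and the split of reads between such copies is uncertain.

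The 5 members at least 1.5-fold lower in cardiomyocyte-like nuclei in all 3 libraries were Cox4i2, Ndufa4l2, Cox6a1, Atp5if1 and Ndufaf7. Atp5if1, the inhibitor that stops the ATP synthase from running in reverse, read 29.8 against 61.4 CPM in WT, 27.7 against 66.3 CPM in BMD and 38.5 against 83.5 CPM in DMD. Ndufaf7, a methyltransferase that acts in complex I assembly, read 4.75 against 14.7 CPM, 6.58 against 14.4 CPM and 8.64 against 18.2 CPM. The first 3 genes of this group each have a partner form, and the pairs were followed through the classes.

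Cox4i2, the oxygen-responsive form of subunit IV, was highest in pericyte or smooth muscle-like nuclei. It read 184, 147 and 135 CPM there in WT, BMD and DMD, on 124, 77 and 79 UMIs. In cardiomyocyte-like nuclei 5, 1 and 0 UMIs were found. The count of 0 among 1054 nuclei in DMD was taken with a limit of 3 counts, which would be 0.285% of nuclei. Its common form Cox4i1 was read in every class, at 132, 111 and 150 CPM in cardiomyocyte-like and 92.1, 79.9 and 98.9 CPM in pericyte or smooth muscle-like nuclei. Ndufa4l2, a hypoxia-induced relative of Ndufa4, had 83.2, 76.1 and 76.7 CPM in pericyte or smooth muscle-like nuclei and 0, 3 and 1 UMIs in cardiomyocyte-like nuclei. Ndufa4 ran the other way, with 79.5, 68.2 and 66.5 CPM in cardiomyocyte-like and 22.3, 32.3 and 34.1 CPM in pericyte or smooth muscle-like nuclei. Free RNA held Cox4i2 at 13.3, 12.6 and 16.9 CPM and Ndufa4l2 at 7.62, 6.31 and 12.7 CPM, well under the levels of pericyte or smooth muscle-like nuclei.

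Cox6a2 and Cox6a1 are the heart and muscle form and the common form of subunit VIa. Against all other nuclei Cox6a2 was higher in cardiomyocyte-like nuclei by a log2 ratio (CPM + 5) of 1.55 in WT but 0.20 in BMD and 0.63 in DMD. These other nuclei included the cluster led by Pgam2, which had Cox6a2 among its leading genes. The part of that cluster in the 3 ratios was not tested. Cox6a2 read 78.7 (WT), 70.1 (BMD) and 82.2 CPM (DMD) in cardiomyocyte-like nuclei, 12.2, 38.5 and 41.6 CPM in endothelial-like nuclei and 9.92, 18.3 and 26.5 CPM in fibroblast-like nuclei. Its level was lowest in WT in both of the latter classes. In monocyte or neutrophil-like nuclei it was 187 CPM in BMD and 159 CPM in DMD, above cardiomyocyte-like nuclei, on 9 and 45 UMIs. Free RNA held Cox6a2 at 162, 235 and 249 CPM, also lowest in WT, and its part in the levels outside cardiomyocyte-like nuclei was not tested. Cox6a1 read 18.5, 17.4 and 22.5 CPM in cardiomyocyte-like and 115, 65.7 and 136 CPM in endothelial-like nuclei.

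Cox8b, the heart form, read 52.8, 36.5 and 46.3 CPM in cardiomyocyte-like nuclei and 9.10, 14.8 and 15.3 CPM in fibroblast-like nuclei. Against all other nuclei it was higher by a log2 ratio (CPM + 5) of 1.21 in WT and 0.46 in DMD, but 0.02 in BMD. The cluster led by Pgam2 was again among these other nuclei. Cox8a, the common form, read 38.8, 43.7 and 59.7 CPM in cardiomyocyte-like and 68.8, 40.7 and 62.8 CPM in fibroblast-like nuclei, so its order between these classes was not the same in the 3 libraries. Cox7a1, the heart and muscle form of subunit VIIa, was read at only 1.90, 1.88 and 2.62 CPM in cardiomyocyte-like nuclei, on 12, 12 and 10 UMIs. No gene named Cox7a2, its common partner, was among the genes listed.

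**Figure D3:**
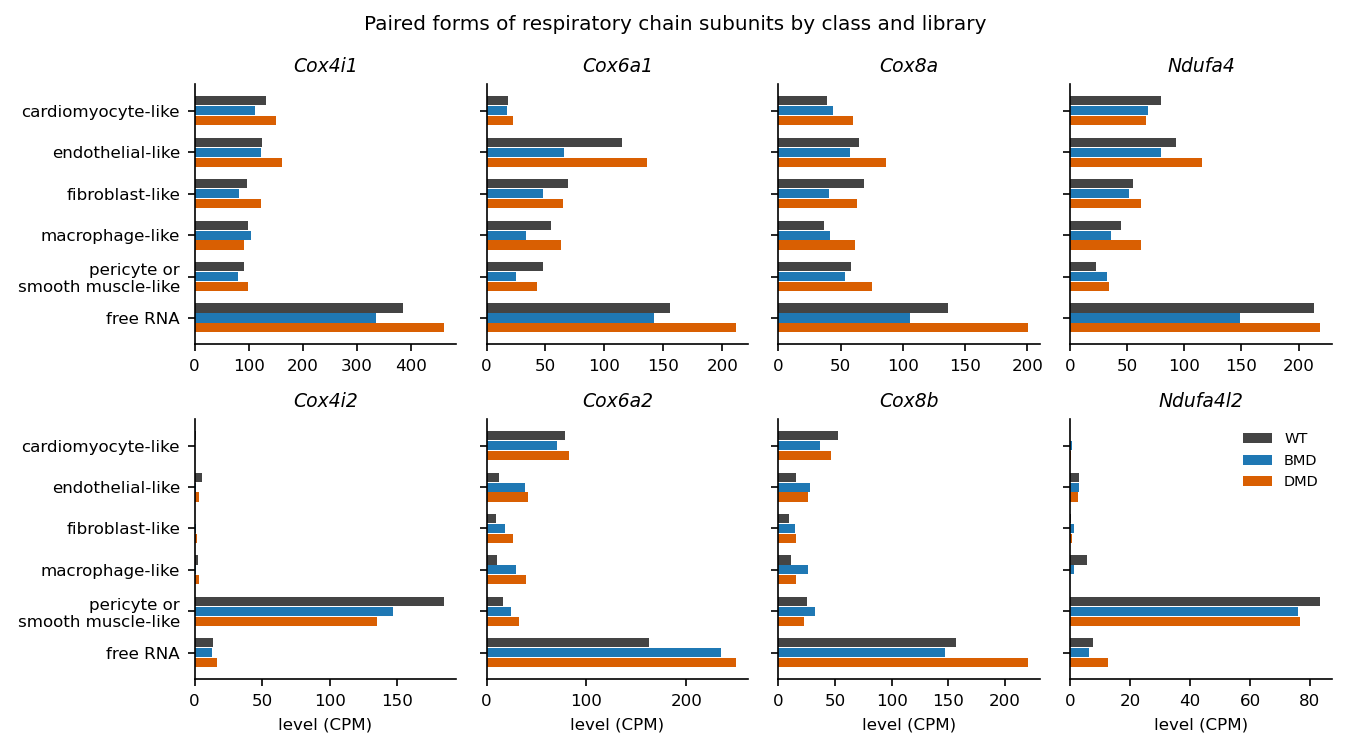
Level in CPM of paired subunit forms in the main classes of nuclei and in free RNA, with 1 bar per library and each axis starting at 0. Cox4i2 and Ndufa4l2 reach 135 to 184 and 76.1 to 83.2 CPM in pericyte or smooth muscle-like nuclei, and Cox6a2 reaches 70.1 to 82.2 CPM in cardiomyocyte-like nuclei.

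The libraries of the dystrophic lines were then set against WT within cardiomyocyte-like nuclei. Both comparisons use the same WT library. With finer clusters, the cardiomyocyte-like nuclei included a cluster led by Xirp2, with Nppa and Nppb among its leading genes. It held 135, 886 and 427 nuclei in WT, BMD and DMD, beside 1892, 639 and 629 in the other cluster of the class. The make-up of the class thus differed between the libraries, and its part in the ratios was not tested. The nuclear-encoded sum was lower than in WT by a log2 ratio of -0.23 (-0.25 to -0.21) in BMD and -0.10 (-0.13 to -0.08) in DMD. The Mt sum was higher, by 0.66 (0.63 to 0.69) in BMD and 0.93 (0.90 to 0.97) in DMD. The order of the libraries was thus WT, DMD, BMD from high to low for nuclear-encoded members and DMD, BMD, WT for Mt members, and none of the intervals overlapped.

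Of the 97 nuclear-encoded members, 87 had at least 50 UMIs over the 3 libraries in these nuclei, 6 had fewer and 4 (Ndufa1, Cox8c, Cox7b2 and Cox6c-ps1) were at 0. In BMD, 7 of the 87 (8.05%) were at least 1.5-fold lower than in WT, where 5.3% of all 10060 genes were, and none was that much higher (4.17% of all genes). In DMD, 4 (4.60%) were lower, where 6.26% of all genes were, and none was higher (6.03% of all genes). Members lower by that fold were therefore about as frequent as among all genes. Most members showed a small displacement instead. In BMD 72 of 87 were below 0 (82.8%, all genes 58.5%) with a median of -0.23 (all genes -0.06). In DMD 59 were below 0 (67.8%, all genes 53.8%) with a median of -0.08 (all genes -0.03). The counting interval lay wholly below 0 for 48 members in BMD and 24 in DMD, and wholly above 0 for 4 and 10. Such intervals were not counted over all genes, so these counts cannot be read as particular to the members. The count of 7 in BMD depended on the processing, at 3 with finer clusters and 11 or 25 with free RNA subtracted, and the nuclear-encoded ratio in BMD was -0.091 with finer clusters.

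Transcripts of ribosomal proteins, which are also short and abundant, also had medians below WT. Over 72 of them the median was -0.28 in BMD and -0.08 in DMD. At least 1.5-fold lower were 19 in BMD and 12 in DMD, and 1 and 2 were higher, where 5.3% and 6.26% of all genes were lower and 4.17% and 6.03% higher. In free RNA the ribosomal protein transcripts stood at -0.95 in BMD and -0.16 in DMD on the same log2 scale. Their part in the members' displacement was not tested.

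Complex I subunits, the entry point for NADH electrons, summed to 2747, 2347 and 2442 CPM in WT, BMD and DMD, highest in WT. The log2 ratios were -0.23 (-0.26 to -0.19) in BMD and -0.17 (-0.21 to -0.13) in DMD, and 32 and 28 of 35 subunits were below 0. Ndufs4, an accessory subunit, read 316, 321 and 281 CPM, so that only DMD was below WT. Ndufb3, another accessory subunit, read 209, 172 and 200 CPM. Ndufa5 was the subunit furthest below WT in BMD, at 168, 105 and 128 CPM, and Ndufa10l1 the one furthest below in DMD, at 161, 154 and 102 CPM. Ndufc2 was among the few above WT in both, at 54.0, 60.2 and 69.4 CPM, and its interval in BMD (-0.06 to 0.37) included 0.

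The assembly factors of complex I, which build the enzyme without being part of it, did not share that displacement. Their 8 genes summed to 247, 238 and 251 CPM, with log2 ratios of -0.05 (-0.16 to 0.05) and 0.02 (-0.09 to 0.14), both intervals including 0. Within the group the genes went apart. Ndufaf4 read 58.8, 75.4 and 78.8 CPM, at 0.36 (0.16 to 0.56) in BMD and 0.42 (0.20 to 0.65) in DMD. Ndufaf2 read 88.9, 71.6 and 66.3 CPM and Ndufaf8 read 14.4, 7.52 and 8.12 CPM, both highest in WT. Ndufaf7 read 4.75, 6.58 and 8.64 CPM on 30, 42 and 33 UMIs, and its interval in BMD (-0.24 to 1.20) included 0.

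Complex II summed to 656, 623 and 645 CPM, at -0.08 (-0.14 to -0.01) in BMD and -0.02 (-0.10 to 0.05) in DMD. Its subunits did not move as one. Sdha was below WT, at 195, 160 and 173 CPM, and Sdhb above it, at 184, 217 and 201 CPM. Sdhb stood at 0.24 (0.13 to 0.36) in BMD, while its interval in DMD (-0.0016 to 0.26) reached just below 0.

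Complex III, which passes electrons from ubiquinol to cytochrome c, summed to 829, 729 and 761 CPM, at -0.19 (-0.24 to -0.13) and -0.12 (-0.19 to -0.06). Uqcrc2 stayed near WT in BMD at 358, 349 and 323 CPM. Uqcrh, the hinge protein that binds cytochrome c1, read 139, 118 and 137 CPM. Uqcrb, the ubiquinone-binding protein, was the most displaced. The copy with identifier ENSRNOG00000024967 read 46.1, 27.0 and 29.6 CPM, and that with ENSRNOG00000032204 read 7.13, 2.51 and 2.62 CPM on 45, 16 and 10 UMIs.

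Complex IV, the oxidase that reduces oxygen, summed to 1026, 828 and 1005 CPM, at -0.31 (-0.36 to -0.26) in BMD but -0.03 (-0.09 to 0.03) in DMD. The lower level was thus seen in BMD, with 12 of 14 subunits below 0, and DMD was not separated from WT. This holds for the named class alone. The unnamed cluster led by Pgam2, set out below, read 5786, 5535 and 6798 CPM for complex IV and was left out. It held 16.8% of the nuclear-encoded UMIs of itself and the cardiomyocyte-like nuclei in BMD, against 4.62% in WT and 9.49% in DMD. The complex IV ratio with it counted in was not taken. Cox6c read 193, 143 and 151 CPM, lower in both. Cox4i1 read 132, 111 and 150 CPM, at -0.24 (-0.39 to -0.10) in BMD and 0.18 (0.03 to 0.34) in DMD, on opposite sides of WT. Cox8a was lowest in WT (38.8 CPM) and highest in DMD (59.7 CPM), with an interval in BMD (-0.08 to 0.43) that included 0. The heart forms Cox6a2 and Cox8b stood at -0.17 (-0.36 to 0.02) and -0.53 (-0.78 to -0.28) in BMD, and at 0.06 (-0.15 to 0.27) and -0.19 (-0.46 to 0.08) in DMD.

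Complex V, the ATP synthase, summed to 1435, 1164 and 1356 CPM, at -0.30 (-0.35 to -0.26) in BMD and -0.08 (-0.13 to -0.03) in DMD. The cluster led by Pgam2, left out here too, read 7305, 6128 and 8806 CPM for complex V. The complex V ratio with it counted in was not taken. Atp5f1e, the small epsilon subunit of the catalytic head, read 51.7, 21.5 and 31.9 CPM, a log2 ratio of -1.27 (-1.56 to -0.97) in BMD and -0.69 (-1.01 to -0.39) in DMD. Atp5me and Atp5md, small subunits of the membrane part that help to join ATP synthases to each other, read 99.7, 49.9 and 72.8 CPM, and 22.8, 8.94 and 9.43 CPM. All of them were at least 1.5-fold lower in BMD. In both libraries 3 members passed that fold, namely Atp5f1e, Atp5md and the Uqcrb copy ENSRNOG00000032204. The share of all genes passing it in both was not taken.

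Other subunits of the catalytic head lay on either side of WT. Atp5f1b, the catalytic beta subunit, read 159, 181 and 199 CPM, above WT in both libraries at 0.19 (0.07 to 0.31) and 0.33 (0.19 to 0.47). Atp5f1c, the gamma subunit of the central stalk, read 339, 245 and 270 CPM, below WT in both. Atp5f1d, the delta subunit, read 28.8, 32.5 and 38.0 CPM, with an interval in BMD (-0.12 to 0.47) that included 0. In free RNA Atp5f1e stood at 312, 202 and 392 CPM and Atp5me at 311, 259 and 381 CPM, so that both were lower than WT in BMD and higher in DMD there.

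**Figure D4:**
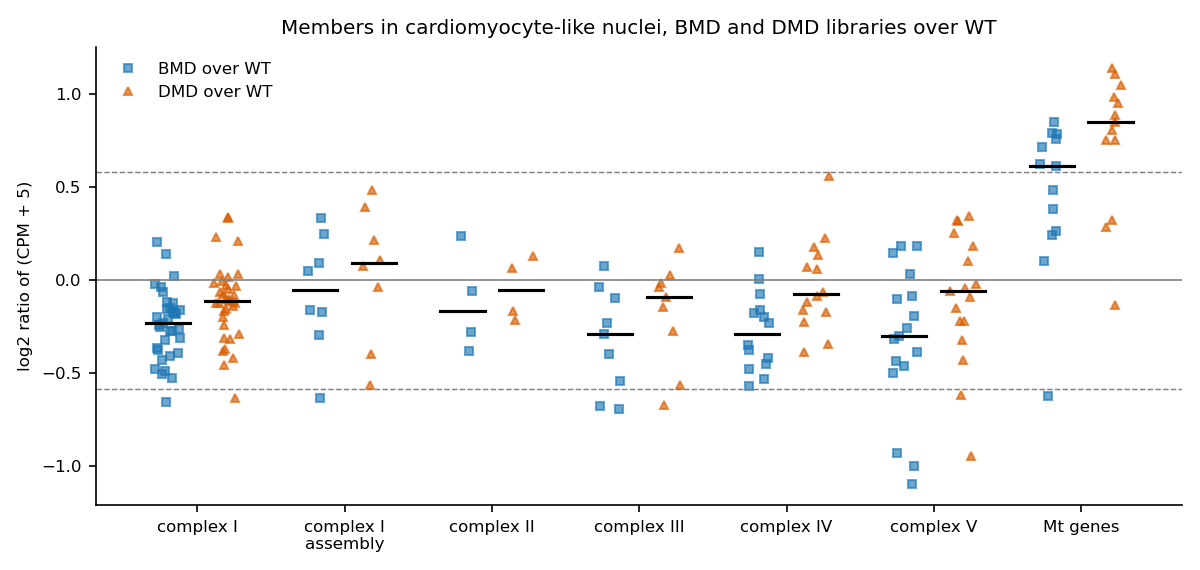
Log2 ratio of (CPM + 5) over WT in cardiomyocyte-like nuclei for each member with at least 50 UMIs, by complex, with 1 point per gene and library. Most nuclear-encoded points lie a little below 0 (medians -0.23 in BMD and -0.08 in DMD), and the Mt points lie above 0 except Mt-atp8.

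Among the 13 Mt members, 7 were at least 1.5-fold higher than WT in BMD and 10 in DMD, where 4.17% and 6.03% of all genes were. Their medians were 0.61 and 0.85. Mt-co1, the catalytic subunit of complex IV, read 455, 704 and 769 CPM in WT, BMD and DMD. Mt-co2, which takes electrons from cytochrome c, read 391, 667 and 870 CPM, and Mt-co3 474, 727 and 883 CPM. Mt-cyb, the cytochrome b of complex III, read 234, 388 and 469 CPM. All of these were lowest in WT and highest in DMD. Mt-atp6, the proton channel subunit of complex V, read 215, 393 and 451 CPM.

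The complex I genes of mitochondrial DNA spread more widely. Mt-nd2 read 156, 273 and 307 CPM, Mt-nd4 132, 187 and 242 CPM, and Mt-nd1 126, 166 and 216 CPM. Mt-nd3 read 40.1, 49.2 and 74.1 CPM. These 4 followed the same order of libraries as the complex IV genes. Mt-nd4l (16.2, 20.1 and 21.5 CPM) and Mt-nd5 (26.6, 29.0 and 33.5 CPM) had intervals that included 0 in both libraries. Mt-nd6, the one member read from the other strand of mitochondrial DNA, had the largest ratios, 1.34 (0.70 to 2.01) and 1.77 (1.11 to 2.47), but on only 29, 74 and 60 UMIs.

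Mt-atp8 was the exception. It read 14.3, 7.52 and 12.6 CPM on 90, 48 and 48 UMIs, a log2 ratio of -0.92 (-1.46 to -0.40) in BMD and -0.18 (-0.72 to 0.34) in DMD. It overlaps Mt-atp6 on mitochondrial DNA, so reads can be shared between them. Its level in free RNA was also lowest in BMD, at 228, 53.6 and 127 CPM. Mt-nd4l and Mt-nd5 were likewise lowest in BMD there, whereas the other 10 Mt genes were lowest in WT. As a share of Mt UMIs, Mt-atp8 was 0.656%, 0.260% and 0.426% in fibroblast-like nuclei, so its low place in BMD was not particular to cardiomyocyte-like nuclei.

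Free RNA carried both groups of members. Against all nuclei of the same library, the Mt share was higher in free RNA by a log2 ratio of 0.88 (WT), 1.56 (BMD) and 1.84 (DMD), and the nuclear-encoded sum by 1.11, 0.93 and 1.24. With barcodes of 11 to 50 UMIs alone the Mt ratios were 0.26, -0.27 and 0.87, so that in BMD the direction turned. The levels of the nuclear-encoded sum in free RNA were 11902, 10201 and 13368 CPM, and the Mt shares 3.23%, 5.41% and 8.58%. At least 2-fold higher in free RNA were 50 of 89 nuclear-encoded members in WT, 43 of 88 in BMD and 56 of 88 in DMD, where 5.71%, 9.78% and 10.6% of all genes were. The share of members was thus above that of all genes in each library.

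Between the complexes, the excess in free RNA over cardiomyocyte-like nuclei was uneven. Median log2 ratios in WT, BMD and DMD were 1.45, 1.26 and 1.57 for complex IV, 1.43, 1.29 and 1.42 for complex V, and 0.57, 0.93 and 0.82 for complex I subunits. Complex II stood at -0.31, -0.26 and -0.40 and the assembly factors at -0.18, -0.15 and -0.08. Sdha read 128, 97.8 and 109 CPM in free RNA and Ndufaf4 27.3, 47.3 and 35.2 CPM, both below their levels in cardiomyocyte-like nuclei. Every Mt member was above 0, with medians of 3.60, 3.67 and 4.03.

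**Figure D5:**
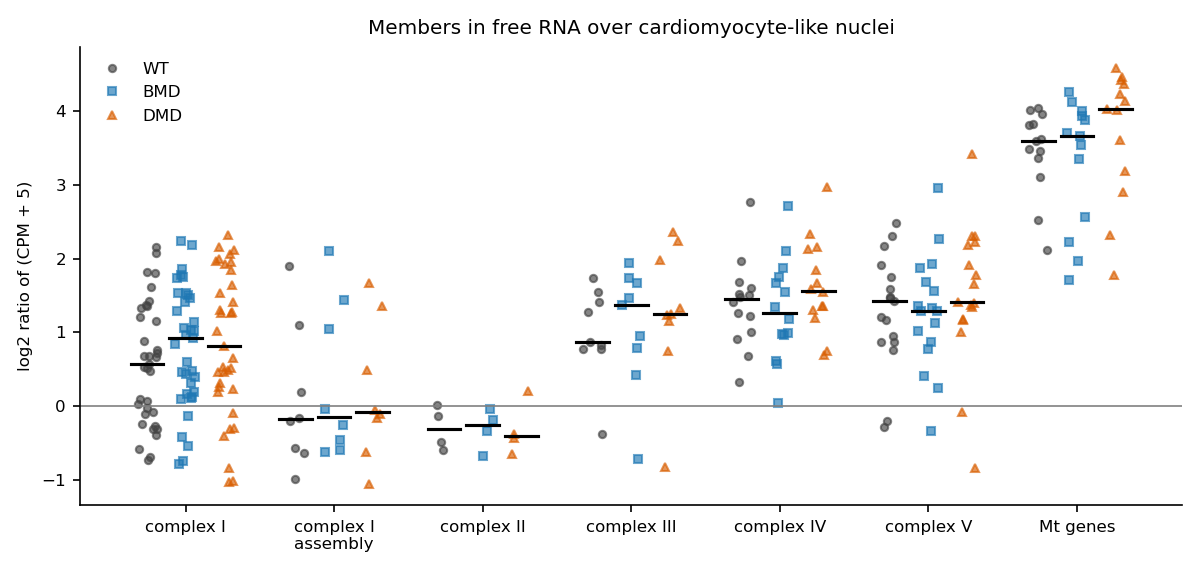
Log2 ratio of (CPM + 5) in free RNA over cardiomyocyte-like nuclei for each member, by complex, with 1 point per gene and library. Complexes IV and V have medians of 1.26 to 1.57, complex II of -0.40 to -0.26 and Mt members of 3.60 to 4.03.

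The Mt difference between the libraries in cardiomyocyte-like nuclei had the same order as the Mt share of their free RNA. Free RNA stood at 0.74 (0.72 to 0.76) in BMD and 1.41 (1.39 to 1.43) in DMD over WT, beside 0.66 and 0.93 in the nuclei. The place of WT in free RNA depended on the barcodes taken: with at most 20 UMIs the Mt share was 6.72%, 5.78% and 9.18% in WT, BMD and DMD, and with 11 to 50 UMIs it was 2.11%, 1.52% and 4.37%. In both of these ranges WT was above BMD. How much free RNA the nuclei held was estimated from markers of other classes. The fibroblast markers, 9 genes summing to 143, 123 and 250 CPM in cardiomyocyte-like nuclei and to 6753, 3592 and 6863 CPM in free RNA, put it at up to 2.12%, 3.43% and 3.65% of UMIs. At these shares free RNA would bring 29.9%, 51.3% and 71.7% of the Mt UMIs found in WT, BMD and DMD. What was left was an Mt share of 0.164%, 0.183% and 0.128%, a log2 ratio over WT of 0.16 in BMD and -0.35 in DMD. With that subtraction the ratio in DMD turned below 0 and that in BMD moved close to 0, a result of the fibroblast markers' estimate.

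The estimate depended on the marker list. The macrophage markers gave 3.17%, 4.26% and 4.53%, at which free RNA would bring 44.8%, 63.6% and 89.0% of the Mt UMIs. The monocyte or neutrophil markers gave 3.78%, 3.79% and 1.83%, at which it would bring 53.5%, 56.6% and 35.9%, so that by this list the part left was largest in DMD. The mesothelial markers gave 6.61%, 1.66% and 2.19%, at which it would bring 93.4%, 24.7% and 43.0%. By the T or B cell markers it would bring 37.3%, 85.5% and 124%. The endothelial markers gave 9.99%, 13.8% and 9.50%, at which it would bring 141%, 206% and 187%, more than was found. The endocardial, lymphatic and Schwann markers gave still more in every library. All markers of other classes together gave 14.4% in WT, 10.3% in DMD and the highest share in BMD, at which it would bring an Mt share of 0.465%, 0.880% and 1.08% in that order, more than was found. That last estimate is an upper one, since the pericyte or smooth muscle markers alone read 695 to 1023 CPM in cardiomyocyte-like nuclei. For the nuclear-encoded members the fibroblast estimate changed little, leaving 6834, 5777 and 6198 CPM.

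The make-up of the Mt UMIs differed between classes. Within WT, Mt-co1 was 19.9% of the Mt UMIs of cardiomyocyte-like nuclei, 20.2% of those of free RNA and 14.1% of those of fibroblast-like nuclei. In BMD these shares were 19.4%, 20.1% and 14.9%, and in DMD 17.6%, 18.7% and 14.8% to 15.2% (the interval). The intervals of cardiomyocyte-like nuclei and free RNA overlapped in WT and BMD but not in DMD, where cardiomyocyte-like nuclei (17.0% to 18.2%) were below free RNA (18.4% to 19.0%). Mt-co3 was 20.7%, 20.1% and 20.2% of the Mt UMIs of cardiomyocyte-like nuclei in WT, BMD and DMD, 20.9%, 21.0% and 20.4% of those of fibroblast-like nuclei, and 24.1%, 23.6% and 22.2% of those of free RNA. For this gene cardiomyocyte-like nuclei were thus nearer to fibroblast-like nuclei than to free RNA. Mt-atp6 was 9.42%, 10.8% and 10.3% in cardiomyocyte-like nuclei, 12.8%, 13.2% and 11.7% in fibroblast-like nuclei, and 11.2%, 9.34% and 8.61% in free RNA.

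One small cluster, led by Pgam2, the muscle form of a glycolytic enzyme, and left unnamed, concentrated the members of both genomes. It held 44, 90 and 50 nuclei in WT, BMD and DMD, and its leading genes included Nppa, Nppb, Tnnc1, Cox6a2 and Mt-co1. Of the 10 cardiomyocyte markers, 4 (Tnnt2, Tnni3, Myl2 and Pln) were raised in it against all remaining nuclei, the cardiomyocyte-like ones included. The summed level of the 10 markers was 22232, 21719 and 21203 CPM in the cluster. It was 23284, 25464 and 25605 CPM in cardiomyocyte-like nuclei, so by this sum the cluster was close to them. Nuclear-encoded members reached 25817, 22391 and 28241 CPM, and Mt members 27.8%, 15.5% and 31.8% of UMIs. Both were far above cardiomyocyte-like nuclei and above free RNA. Complex IV, at 5786, 5535 and 6798 CPM, showed this more than complex II, at 1045, 888 and 829 CPM.

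In these nuclei the median Mt share was 56.8%, 63.9% and 57.5%, and 77.3%, 75.6% and 84.0% of them passed 5%. Predicted doublets were 2.27%, 1.11% and 6% of the cluster. Although the cluster was 2.13%, 5.65% and 4.53% of itself and the cardiomyocyte-like nuclei together, it held 61.3%, 69.7% and 63.6% of their Mt UMIs. Counted with the cardiomyocyte-like nuclei, it moved the Mt ratios over WT to 0.96 (BMD) and 1.01 (DMD), and the nuclear-encoded ratios to -0.09 and -0.04. The cluster's summed Mt level, set against WT on its own, was at -0.84 (-0.86 to -0.82) in BMD and 0.19 (0.17 to 0.22) in DMD. In BMD single nuclei went the other way from this sum. Their median Mt share was above that of WT (63.9% against 56.8%). They also held 590 Mt UMIs per nucleus on average, against 520 in WT.

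Genes that act around the chain were read in the same cardiomyocyte-like nuclei. Of 12 regulators of mitochondrial biogenesis, 0 were at least 1.5-fold higher or lower than WT in BMD or DMD, with medians of -0.07 and -0.03. Of all genes, 5.3% were lower and 4.17% higher in BMD, and 6.26% and 6.03% in DMD. A count of 0 in lists as short as those here is therefore near the share of all genes. Ppargc1b, a coactivator of biogenesis genes, read 881, 948 and 1134 CPM. Esrrg, an estrogen-related receptor that acts with it, read 728, 842 and 797 CPM, and both were lowest in WT. Ppargc1a went the other way, at 722, 566 and 620 CPM. Its log2 ratios were -0.35 (-0.41 to -0.29) in BMD and -0.22 (-0.29 to -0.15) in DMD. Of the 12 regulators, 7 were below 0 in BMD and 7 in DMD. Of 14 genes for mitochondrial DNA and RNA upkeep, likewise 0 passed the fold, with medians of 0.01 and 0.03. Lrpprc, which stabilises Mt messenger RNAs, read 269, 276 and 221 CPM, and Supv3l1, a helicase of their decay, 56.7, 57.1 and 62.6 CPM.

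Further assembly factors, outside the symbols used here, numbered 35 with enough UMIs. By the same fold, 3 were lower and 1 higher in BMD, where 5.3% and 4.17% of all genes were. In DMD 2 were lower and 0 higher, where 6.26% and 6.03% of all genes were. Their medians were -0.11 and -0.09. Uqcc1, an assembly factor of complex III, read 323, 290 and 253 CPM, and Cox10, which makes the heme A of complex IV, 279, 249 and 246 CPM. Of 5 electron carrier genes, 0 passed the fold, and Etfa and Etfdh, which feed electrons from fatty acid oxidation into the chain, read 394, 380 and 345 CPM and 127, 125 and 111 CPM. Of 5 genes of energy transfer, 0 passed it either, with medians of 0.11 and 0.24. Slc25a3, the phosphate carrier that supplies the ATP synthase, read 313, 338 and 439 CPM, highest in DMD. Ckmt2, the mitochondrial creatine kinase of muscle, read 485, 401 and 426 CPM, highest in WT.

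Outside cardiomyocyte-like nuclei the nuclear-encoded members did not share one direction. In fibroblast-like nuclei the sum stood at -0.20 (-0.24 to -0.17) in BMD and 0.13 (0.10 to 0.16) in DMD over WT, and in endothelial-like nuclei at -0.14 (-0.19 to -0.10) and 0.18 (0.14 to 0.22). DMD was thus above WT in both classes and below it in cardiomyocyte-like nuclei. The Mt sum stood at 0.11 and 0.26 in fibroblast-like, at 0.05 and 0.52 in endothelial-like and at -0.48 and -0.44 in macrophage-like nuclei. The median nucleus was lower than WT in BMD in both classes and in DMD in fibroblast-like nuclei, unlike the sums, at 1.99%, 1.14% and 1.73% Mt UMIs in fibroblast-like and 1.24%, 0.919% and 1.63% in endothelial-like nuclei. The fibroblast-like class was made of different clusters in different shares, since a cluster led by Tnc held 235 of 3514 nuclei in WT, 496 of 1638 in BMD and 390 of 2278 in DMD. Over all nuclei together the nuclear-encoded sum was at -0.05 in BMD and 0.03 in DMD, and the Mt sum at 0.06 and 0.44.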

How the data were processed

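UMI count matrices deposited by the authors for 3 single-nucleus libraries of rat heart (10x Chromium, 3′ v3.1 kit per the labels and methods; the study's results text speaks of 5′ libraries) were analysed. Per the file headers the authors counted with Cell Ranger 6.0.1 (the matrix listed for WT, an aggregate of 3 libraries, of which barcodes with suffix -3 were taken as WT) and 4 (BMD, DMD). The submitters' processing notes name rn6. Aggregation kept 76.1% of BMD and 92.9% of DMD UMIs, so the separate BMD and DMD matrices, the full ones, were used.

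The nuclei were the barcodes with the most UMIs in each library, in the numbers the study's methods give: 9964 (WT), 6810 (BMD) and 7890 (DMD). After scaling each nucleus to 10000 UMIs and a log transform, 2000 variable genes, none of them members, went through 30 principal components, 15 neighbours and Leiden clustering at resolution 0.5 (scanpy 1.11.5, igraph 0.11.9). Nppa, Nppb, Myh6, Myh7, Tmem65, Ryr2, Gja1, Dmd and sex-linked genes were also left out of the clustering. A cluster was named from a marker list when at least 3, and most, of its markers were raised 2-fold. It stayed unnamed when markers of another class led its top genes or Mt genes did. The same held when its UMIs were low and no marker of the list was among the top genes. The condition "most" was set after the data were seen. Doublets predicted with Scrublet were kept. UMIs were summed per class and library and divided by all UMIs of that class (CPM). Intervals (95%) are exact Poisson for levels, exact Clopper-Pearson for shares and exact binomial for ratios (scipy 1.17.1), and PCR and free RNA are outside them. Counts and medians of gene ratios used CPM + 5 and genes with at least 50 UMIs over the 3 libraries, while gene ratios printed with an interval are plain CPM ratios. With 1 library per genotype there was no test. The calculation was tested on simulated data.

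Named genes were every Mt member; per complex the 2 members with the highest WT level; the 6 lowest and 6 highest by the ratio nearer 0 of BMD and DMD; the subunit pairs; and the 2 highest genes of each further list. Ndufa5, Ndufa10l1, Atp5if1, Sdhc, Sdhd and Ppargc1a were named after their values were seen. The members and lists were chosen with earlier results of these data known. Alternatives were other clusterings, scalings (edgeR 4.0.16 TMM), filters and free RNA limits. Counting the Pgam2 cluster as cardiomyocyte-like, taking free RNA from 11 to 50 UMIs and subtracting free RNA at the fibroblast markers' share were added after the data were seen. Promoters came from RefSeq (GRCr8).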

Additional observations from a re-analysis of the deposited data

Results flagged for a closer look

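In the following classes of nuclei the ratio over WT lay on the other side of 0 from that in cardiomyocyte-like nuclei. With 1 library per genotype none of these differences was tested. The nuclear-encoded sum in DMD, at -0.10 in cardiomyocyte-like nuclei, stood at 0.13 in fibroblast-like, 0.18 in endothelial-like, 0.13 in macrophage-like, 0.21 in T or B cell-like and 0.66 in monocyte or neutrophil-like nuclei. In BMD, at -0.23 in cardiomyocyte-like nuclei, it stood at 0.28 in monocyte or neutrophil-like nuclei, of which WT had 36 and BMD 39.

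The Mt sum in BMD, at 0.66 in cardiomyocyte-like nuclei, stood at -0.48 in macrophage-like, -0.35 in T or B cell-like and -0.21 in pericyte or smooth muscle-like nuclei. In DMD, at 0.93 in cardiomyocyte-like nuclei, it stood at -0.44 in macrophage-like, -0.16 in T or B cell-like and -0.089 in lymphatic-like nuclei. Macrophage-like nuclei thus had their highest Mt share in WT (5.33%, against 3.84% and 3.93%). T or B cell-like nuclei had theirs in WT too, at 4.21% against 3.31% and 3.76%.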

How the results depend on the processing

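No paired analysis was possible because each genotype had 1 library. Ratios are on the log2 scale, and the cause of the movements was not tested. Of the main values under each alternative, 95 kept within their counting interval or within 1.5 times a count, 103 moved beyond it and 3 turned in direction. Taking BMD and DMD from the aggregate, a gene minimum of 200 UMIs and no minimum moved none of these beyond that. The free RNA subtraction at the share all other classes' markers gave left no Mt UMIs in cardiomyocyte-like nuclei, so it gave no Mt value there. With Leiden resolution 1, the nuclear-encoded ratio over WT was -0.091 (BMD) and -0.077 (DMD) and the nuclear-encoded ratio to other nuclei was 0.61 (WT), 0.61 (BMD) and 0.35 (DMD). The Mt ratio over WT was 0.60 (BMD) and the Mt ratio to other nuclei was -3.45 (WT), -3.03 (BMD) and -2.79 (DMD). The number of members 1.5-fold lower was 3 (BMD). The ratio over WT turned in direction for Ndufa4, at 0.095 (BMD). With free RNA subtracted at the share all other classes' markers gave, the nuclear-encoded ratio over WT was -0.33 (BMD) and the nuclear-encoded ratio to other nuclei was 2.01 (WT), 0.51 (BMD) and 1.26 (DMD). The number of members 1.5-fold lower was 25 (BMD) and the number of members 1.5-fold higher was 5 (DMD). With edgeR TMM factors, the nuclear-encoded ratio over WT was -0.15 (BMD) and -0.069 (DMD) and the Mt ratio over WT was 0.74 (BMD) and 0.97 (DMD). The number of members 1.5-fold higher was 1 (DMD). Over all nuclei in place of the cardiomyocyte-like ones, the nuclear-encoded ratio over WT was -0.046 (BMD) and 0.031 (DMD) and the Mt ratio over WT was 0.058 (BMD) and 0.44 (DMD). The number of members 1.5-fold lower was 0 (BMD) and 1 (DMD) and the number of members 1.5-fold higher was 1 (DMD). The ratio over WT turned in direction for Mt-nd1, at -0.018 (BMD), Mt-co2, at -0.074 (BMD), Mt-co3, at -0.0057 (BMD), Mt-nd3, at -0.26 (BMD), Cox8b, at 0.18 (BMD), Ndufa4, at 0.11 (BMD) and 0.21 (DMD), Atp5f1e, at 0.19 (DMD), Atp5me, at 0.22 (DMD), Ppargc1b, at -0.030 (DMD) and Esrrg, at -0.26 (DMD). With the Pgam2 cluster counted as cardiomyocyte-like, the nuclear-encoded ratio over WT was -0.086 (BMD) and -0.044 (DMD) and the nuclear-encoded ratio to other nuclei was 0.66 (WT), 0.69 (BMD) and 0.45 (DMD). The Mt ratio over WT was 0.96 (BMD) and 1.01 (DMD) and the Mt ratio to other nuclei was -2.08 (WT), -1.08 (BMD) and -1.30 (DMD). The number of members 1.5-fold lower was 3 (BMD). The ratio over WT turned in direction for Ndufa4, at 0.096 (BMD) and 0.0029 (DMD). With free RNA subtracted at the fibroblast markers' share, the nuclear-encoded ratio over WT was -0.14 (DMD) and the Mt ratio over WT was 0.16 (BMD) and -0.35 (DMD). The number of members 1.5-fold lower was 11 (BMD) and 7 (DMD). The ratio over WT turned in direction for Mt-nd1, at -0.76 (BMD) and -2.04 (DMD), Mt-co3, at -0.082 (BMD) and -0.69 (DMD), Mt-nd3, at -0.18 (BMD) and -0.095 (DMD), Mt-nd2, at -0.32 (DMD), Mt-co1, at -0.76 (DMD) and Mt-co2, at -0.71 (DMD). With barcodes of at least 1000 UMIs, the nuclear-encoded ratio of free RNA to nuclei was 1.08 (WT) and the nuclear-encoded ratio to other nuclei was 0.60 (WT), 0.31 (BMD) and 0.37 (DMD). The Mt ratio over WT was 0.70 (BMD) and 0.84 (DMD) and the Mt ratio of free RNA to nuclei was 1.05 (WT), 1.67 (BMD) and 1.97 (DMD). The Mt ratio to other nuclei was -3.48 (WT), -2.94 (BMD) and -2.88 (DMD). With free RNA from barcodes of at most 20 UMIs, the nuclear-encoded ratio of free RNA to nuclei was 0.79 (WT) and the Mt ratio of free RNA to nuclei was 1.93 (WT), 1.66 (BMD) and 1.94 (DMD). With free RNA from barcodes of 11 to 50 UMIs, the nuclear-encoded ratio of free RNA to nuclei was 1.20 (WT), 1.06 (BMD) and 1.34 (DMD) and the Mt ratio of free RNA to nuclei was 0.26 (WT), -0.27 (BMD) and 0.87 (DMD). Without nuclei over 5% Mt UMIs, the nuclear-encoded ratio to other nuclei was 0.60 (WT), 0.34 (BMD) and 0.45 (DMD) and the nuclear-encoded ratio of free RNA to nuclei was 1.35 (DMD). The Mt ratio over WT was 0.84 (BMD) and 1.20 (DMD) and the Mt ratio of free RNA to nuclei was 1.68 (WT), 2.79 (BMD) and 2.88 (DMD). The Mt ratio to other nuclei was -3.15 (WT), -1.92 (BMD) and -1.91 (DMD). Without predicted doublets, the nuclear-encoded ratio to other nuclei was 0.59 (WT) and 0.25 (DMD) and the Mt ratio over WT was 0.73 (BMD) and 0.88 (DMD). The Mt ratio to other nuclei was -3.75 (WT), -3.13 (BMD) and -3.09 (DMD). With the members kept in the clustering, the nuclear-encoded ratio to other nuclei was 0.52 (WT), 0.22 (BMD) and 0.22 (DMD) and the Mt ratio over WT was 0.92 (BMD) and 1.04 (DMD). The Mt ratio to other nuclei was -3.74 (WT), -2.94 (BMD) and -2.94 (DMD). Scaled to the UMIs outside the Mt genes, the nuclear-encoded ratio to other nuclei was 0.53 (WT), 0.23 (BMD) and 0.24 (DMD) and the nuclear-encoded ratio of free RNA to nuclei was 0.98 (BMD) and 1.34 (DMD). The Mt ratio of free RNA to nuclei was 0.90 (WT), 1.62 (BMD) and 1.94 (DMD) and the Mt ratio to other nuclei was -3.57 (WT), -3.05 (BMD) and -2.89 (DMD). As a mean over nuclei, the Mt ratio over WT was 0.90 (DMD). With CPM + 1, the number of members 1.5-fold higher was 2 (DMD).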

Other observations

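The nuclear-encoded sum in free RNA also varied with the barcodes taken. In barcodes with at most 20 UMIs it read 9530 (WT), 10067 (BMD) and 13273 CPM (DMD), and in barcodes with 11 to 50 UMIs it was 12657, 11188 and 14262 CPM. DMD was highest in both ranges, while the order of WT and BMD was not the same in the smaller and the larger barcodes.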
